A study of Mus musculus with 44 samples.

Results

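Guanylate-binding proteins (GBPs) and immunity-related GTPases (IRGs) are enzymes that bind and hydrolyse GTP and that cells make in large amounts after interferon. The 10 genes described here, 4 of the GBP family (Gbp2, Gbp3, Gbp6 and Gbp7) and 6 of the IRG family (Irgm1, Irgm2, Igtp, Iigp1, Ifi47 and Tgtp2), were taken by symbol from the 55487 gene rows of the 2 count tables, and all 10 were found in both. RNA was sequenced from the mouse nucleus accumbens, a ventral striatal region, after a viral vector had delivered RXRa, the nuclear receptor retinoid X receptor alpha, or a fluorescent control protein. One table held 8 libraries of bulk tissue from males, 4 with the herpes simplex vector HSV-GFP and 4 with HSV-RXRa-GFP. The other held nuclei sorted as D1 or D2, the striatal neurons named for the dopamine receptors Drd1 and Drd2, from animals given AAV9-CAG-DIO-EGFP or AAV9-CAG-DIO-EGFP-P2A-RXRa, adeno-associated vectors whose DIO insert is expressed only in cells that hold Cre recombinase. For D1 nuclei there were 5 female EGFP, 4 female RXRa, 5 male EGFP and 4 male RXRa libraries, and for D2 nuclei 4, 4, 5 and 4 in the same order. One further D2 library from a female was compared with none, because its title and its vector label disagree. Every animal in both tables had received a vector. The Cre line, strain, age and time after infusion are not given in the sources used here, and nothing in the labels says whether libraries were pooled from several animals.

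GBPs belong to the dynamin superfamily and gather on membranes that surround invading microbes, where they assemble into coats. IRGs act on the same compartments, and the mouse family divides into regulators that sit on the cell's own membranes (Irgm1, Irgm2 and Igtp) and effectors that load onto vacuoles (among them Iigp1 and Tgtp2). Interferon gamma signals through the kinases Jak1 and Jak2 to a gamma-activated site in the promoters of such genes, while interferon-stimulated response elements bind Irf1 or a complex that holds Stat2 and Irf9. In brain, microglia, astrocytes, endothelial cells and neurons can all make these GTPases after interferon.

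In the annotation for GRCm38, Gbp7 (chr3:142530342-142550149), Gbp3 (chr3:142560026-142573209) and Gbp2 (chr3:142620602-142638008) lie in this order on the plus strand, and Gbp6 (chr5:105270702-105293698) is on the minus strand of another chromosome. Igtp (chr11:58199556-58207591) and Irgm2 (chr11:58199618-58222782) overlap on the plus strand. Tgtp2 (chr11:49057194-49064206) and Ifi47 (chr11:49076587-49096974) are neighbours, Irgm1 (chr11:48861968-48871683) is close to them, and Iigp1 is on another chromosome. All 10 are protein-coding. Counts are per gene, so isoforms are not told apart.

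The promoters are shown because the 10 genes moved together in bulk tissue. RefSeq promoters of GRCm38.p6, from 250 bases before to 50 bases after each start, were at hand for 8 of the 10 genes. Both strands were searched for GAAANNGAA, the core of the interferon-stimulated response element, for TTCNNNGAA, the core of the gamma-activated site, and for AGGTCA, the half-site that retinoid X receptors and their partners bind. GAAANNGAA was found for 7 of the 8 genes, all but Ifi47, against 8.56% of 32851 promoters in the table. Members were counted as genes and the rest as single promoters, and a gene may have several. TTCNNNGAA was found in 4 of 8 (Gbp7, Irgm2, Igtp and Tgtp2), against 8.3%. AGGTCA was found in 2 of 8 (Irgm2 and Igtp), against 16.3%. The stretches below, each 5′ to 3′ on the strand of its gene, carry the response-element core of 5 genes, with matches to the first and second cores in capitals.
Igtp: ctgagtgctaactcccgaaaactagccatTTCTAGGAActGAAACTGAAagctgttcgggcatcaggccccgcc
Irgm2: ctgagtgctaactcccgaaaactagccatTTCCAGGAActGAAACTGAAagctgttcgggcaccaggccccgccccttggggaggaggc
Tgtp2: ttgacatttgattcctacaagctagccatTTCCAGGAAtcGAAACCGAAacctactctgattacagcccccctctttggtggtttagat
Gbp7: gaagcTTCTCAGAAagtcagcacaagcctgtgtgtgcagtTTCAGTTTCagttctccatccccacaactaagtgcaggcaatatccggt
Gbp3: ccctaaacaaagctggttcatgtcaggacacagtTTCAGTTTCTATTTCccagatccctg

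In Igtp (chr11:58199482-58199555), Irgm2 (chr11:58214873-58214961) and Tgtp2 (chr11:49064234-49064322, minus strand) the gamma-activated core came first and the response-element core followed 2 bases later, with no overlap. The Irgm2 stretch lies before a RefSeq start inside the annotated gene body, not before the body's start at chr11:58199618. The Igtp and Irgm2 stretches held the same letter at 72 of 74 positions. In Gbp7 (chr3:142530244-142530332) and Gbp3 (chr3:142559966-142560025) the response-element core was read on the opposite strand, and Gbp3 held 2 matches that overlap. A match is a description of letters and not a binding site, and binding was not measured in these samples.

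The 8 bulk libraries held 21567565 to 29167142 counts each and the 35 grouped sorted libraries 12211655 to 27757463. The vector's own RXRa sequence had no count in the bulk GFP libraries and stood at 22.1 to 37.7 CPM (counts scaled to a library of 1000000, by TMM throughout) in the bulk RXRa libraries. Drd2 stood at 48.9 to 106 CPM in D1 libraries and 519 to 1776 CPM in D2 libraries, and Drd1 at 30.6 to 83.7 CPM in D1 and 6.48 to 38.6 CPM in D2, so the ranges of Drd1 overlapped. In bulk, cortical excitatory neuron markers summed to between 7 and 677 CPM in GFP and between 63.8 and 502.5 CPM in RXRa libraries, which differed more within groups than between them. Counts of single members were 308 to 9485 per bulk library and 15 to 463 per sorted library.

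In bulk tissue all 10 GTPases were higher with RXRa than with GFP, by 1.83 to 2.54 times, and 5 of them rose at an adjusted p under 0.05: Gbp3, Gbp7, Iigp1, Ifi47 and Tgtp2. In edgeR's quasi-likelihood test, 3.01% of the 18579 genes tested were called higher (3.7% in either direction). The members' median log2 fold change was 1.04, beside −0.02 over all genes. All 10 had an unadjusted p under 0.05, as did 21.5% of all genes.

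Gbp3 stood at 112.5, 95.1, 70.8 and 72.8 CPM in GFP libraries 1 to 4 and at 145, 218, 176 and 173 CPM in RXRa libraries 1 to 4. Gbp7 stood at 122, 84.1, 63.4 and 77.9 CPM with GFP and at 142, 227, 184 and 176 CPM with RXRa. For both genes every RXRa library lay above every GFP library. Gbp3 rose by 1.02 on the log2 scale (SE 0.17, edgeR adjusted p = 0.0162), and its neighbour Gbp7 by 1.07 (SE 0.20, edgeR adjusted p = 0.0247).

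Gbp2, a widely used marker of interferon response, stood at 183, 165, 66.3 and 90.7 CPM with GFP and at 204, 290.3, 190.1 and 270.0 CPM with RXRa. Its groups did not overlap, but GFP libraries 1 and 2 came close to the lowest RXRa libraries. The difference of 0.92 (log2, SE 0.30) did not pass, at an edgeR adjusted p of 0.128. Gbp6 stood at 31.2, 25.9, 11.9 and 15.5 CPM with GFP and at 38.4, 49.7, 39.5 and 48.8 CPM with RXRa, a log2 difference of 1.06 (SE 0.27, edgeR adjusted p = 0.0639). Of the 4 GBPs, 2 were thus called, and all 4 fold changes lay between 0.92 and 1.07 on the log2 scale.

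The 3 regulatory IRGs did not pass the threshold. Irgm1, which is found on Golgi and other organelles, stood at 206, 162, 98.6 and 118 CPM with GFP and at 247, 326, 233 and 284 CPM with RXRa (log2 difference 0.90, SE 0.21, edgeR adjusted p = 0.0523). Irgm2 stood at 94.7, 73.5, 42.6 and 58.9 CPM with GFP and at 121, 166, 101 and 139 CPM with RXRa (log2 difference 0.96, SE 0.23, edgeR adjusted p = 0.0557). For both genes the groups did not overlap. Igtp, also known as Irgm3, stood at 175, 144, 70.1 and 76.4 CPM with GFP and at 199, 265, 154 and 232 CPM with RXRa. It was the only member whose groups overlapped, because GFP library 1 lay above RXRa library 3, and its log2 difference was 0.87 (SE 0.30, edgeR adjusted p = 0.140).

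The other 3 IRGs rose the most. Iigp1, the effector also called Irga6, stood at 122, 98.5, 49.9 and 63.0 CPM with GFP and at 171, 253, 169 and 204 CPM with RXRa (log2 1.26, SE 0.26, edgeR adjusted p = 0.0361). Ifi47, also called Irgd, stood at 42.8, 38.4, 16.3 and 24.2 CPM with GFP and at 64.7, 90.3, 69.6 and 84.9 CPM with RXRa. Its log2 fold change of 1.35 was the largest of the 10 (SE 0.27, edgeR adjusted p = 0.0313). Tgtp2, also called Irgb6 with its near copy Tgtp1, stood at 27.7, 24.2, 11.4 and 18.4 CPM with GFP and at 42.0, 65.3, 41.3 and 53.5 CPM with RXRa (log2 1.31, SE 0.26, edgeR adjusted p = 0.0292). All 3 had every RXRa library above every GFP library, and the 6 IRGs had a median of 1.11 beside 1.04 for the 4 GBPs.

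**Figure D1:**
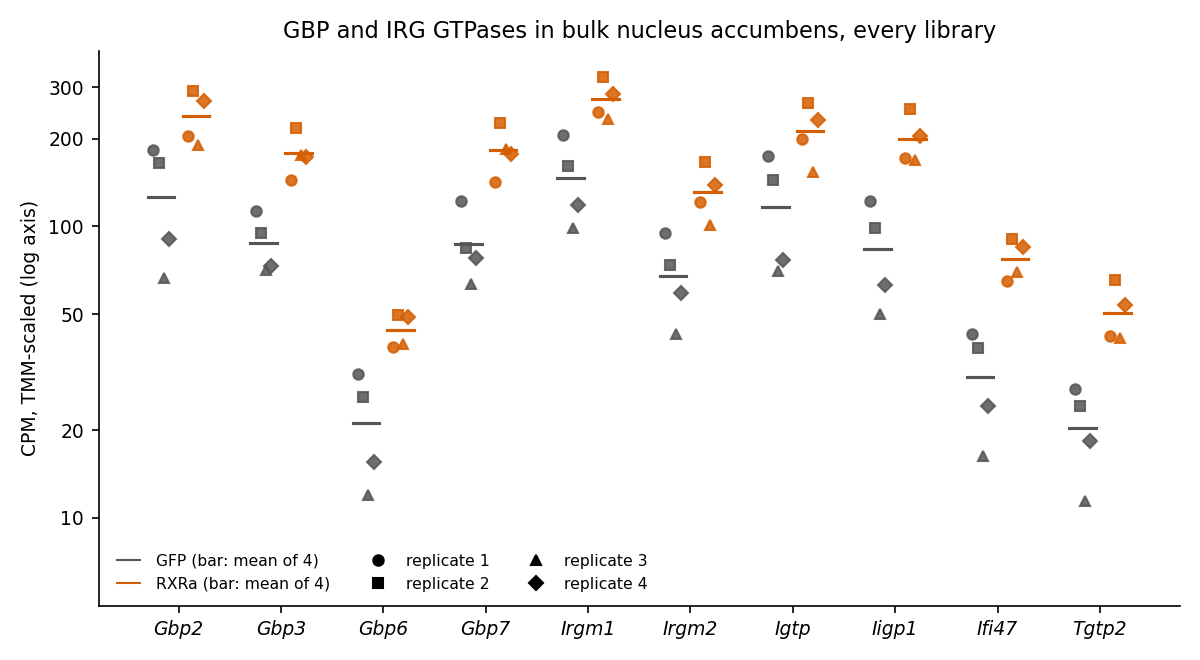
Level of each of the 10 GTPases in every bulk library, as TMM-scaled CPM on a log axis. Grey points are GFP and orange points RXRa, the marker shape gives the replicate and the bar the mean of 4. RXRa lay above GFP without overlap in 9 of 10 genes, with Igtp the exception, and GFP 1 was the highest and GFP 3 the lowest control for every gene.

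Groups did not overlap, with RXRa higher, in 9 of the 10 members and in 6.64% of all genes tested. The libraries kept one order across members. In 10 of 10 genes GFP 1 was the highest and GFP 3 the lowest control, GFP 1 and 2 both lay above GFP 3 and 4, and RXRa 2 was the highest RXRa library. Highest and lowest control differed by 1.59 times for Gbp3 and by 2.75 times for Gbp2, while the RXRa libraries differed by 1.29 to 1.72 times. Over the 8 libraries the 45 pairs of members had correlations (Pearson r of log2(CPM + 1)) of 0.884 to 0.997, median 0.972. With each group's mean taken out the correlations were 0.752 to 0.994, median 0.947. These pairs share their libraries and so are not independent, and no test was made of them.

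The bulk count of calls rested on single libraries. Among members it was 8 without GFP 1, 1 without GFP 2, 5 without GFP 3 and 0 without GFP 4. Over all genes it was 602, 243, 402 and 9 in the same order, beside 687 with every library. Without RXRa 1, 2, 3 and 4 it was 5, 1, 1 and 0 among members and 1016, 333, 295 and 175 over all genes. Every member stayed above 0 in each of these fits, at a log2 fold change of 0.69 to 1.56. With DESeq2 and without a filter on low counts 8 members were called, the 3 added being Gbp6, Irgm1 and Irgm2. Over all genes these settings called 1619 and 888.

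Compared per kilobase of exon, Igtp was the most abundant member in all 8 bulk libraries (57.5 ± 25.4 CPM per kb in GFP and 105 ± 23.4 in RXRa, SD, n = 4) and Gbp2 the second (50.2 ± 22.4 and 94.8 ± 19.5). Gbp3, Irgm1, Irgm2, Gbp7, Iigp1 and Ifi47 followed at 26.9, 25.1, 18.3, 15.5, 14.3 and 12.3 CPM per kb in GFP. Neighbours among these 6 differed by less than the larger of their SDs. Tgtp2 (6.94 ± 2.43) was always the ninth and Gbp6 (3.55 ± 1.51) always the tenth. The steps from Gbp2 to Gbp3, from Ifi47 to Tgtp2 and from Tgtp2 to Gbp6 were larger than the SD on either side.

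Some counts may hold reads of a near copy. Of the 100-base windows of Tgtp2 transcripts, 76.8% also occur in another gene, nearly all in Tgtp1, and 64.5% of those of Gbp6 do, mostly in the overlapping gene Gm43302. The shares were 10% for Gbp7, 5.16% for Igtp, 3.01% for Irgm2, under 1% for Gbp3 and Ifi47 and 0 for Gbp2, Irgm1 and Iigp1. By windows of 100 bases, Tgtp2 therefore could not be told from Tgtp1 in most of its length. The share was not computed for pairs of 150 bp, as the libraries were read. Tgtp1 and Tgtp2 summed were higher by 1.41 (log2, edgeR adjusted p = 0.0223), and Tgtp2's share of the sum was 70.3% to 74.8% in GFP and 65.6% to 69.3% in RXRa libraries.

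Other GTPase genes of the same and related families were higher in bulk too. Of 26 listed, 23 were tested and 13 rose and none fell; their median was 1.26 on the log2 scale. Of those called, the 5 with the largest change were Gm12185 (log2 1.75), an IRG-like gene, Tgtp1 (1.65), Mx1 (1.65), an antiviral dynamin-like GTPase, Gbp4 (1.54) and Gvin1 (1.49), a very large interferon-inducible GTPase. Gbp11 rose by 1.24 (edgeR adjusted p = 0.00689), whereas Gbp5 (0.97) and Gbp10 (1.30) did not pass. The 4 relatives that are not known as interferon-induced, named after their values were seen, lay between −0.14 and 0.07: Irgq and the atlastins Atl1, Atl2 and Atl3, which shape the endoplasmic reticulum, and none of these was called.

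**Figure D2:**
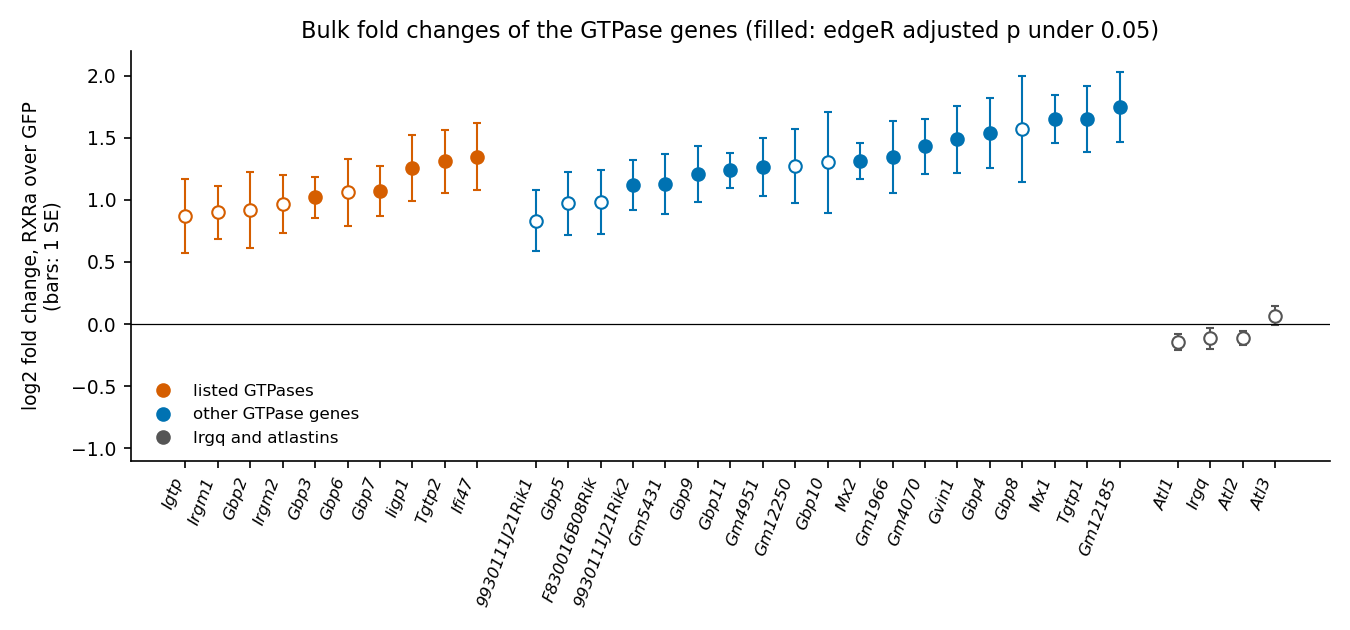
Log2 fold change of RXRa over GFP in bulk tissue with 1 SE, for the 10 members (orange), other GTPase genes of the list (blue) and Irgq and the atlastins (grey). Filled points passed an edgeR adjusted p of 0.05, as 5 of the 10 members and 13 of the 23 other tested genes did.

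The genes that carry the interferon signal were taken by role, from ligands to factors. Of 9 interferon genes 1 had enough counts to be tested: Ifng, the gene of interferon gamma, stood at 0.0739 to 0.671 CPM with GFP and 0.921 to 2.92 CPM with RXRa, without overlap, but its log2 difference of 1.93 did not pass (SE 0.53, edgeR adjusted p = 0.0791). Ifnb1 stayed at or below 0.206 CPM in every library and was not tested. Of 7 receptors and kinases 2 rose, Tyk2 (0.37) and Ifngr2 (0.27), with a median of 0.33. Of 11 transcription factors 7 rose and none fell; the largest changes were those of Batf2 (1.36), Irf7 (1.20), Nlrc5 (1.17) and Stat2 (1.098). Irf2 rose by 0.55, and Irf1 (1.01, edgeR adjusted p = 0.0776) did not pass.

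Of 8 feedback genes 3 rose: Socs1 (1.37), an inhibitor of Jak kinases, Usp18 (1.19) and Isg15 (0.95), with a median of 0.64. Of 17 vacuole and autophagy partners 16 could be matched and tested, and 3 rose: Ubd (2.38), a ubiquitin-like modifier, Trim21 (1.102), a ubiquitin ligase, and Lgals8 (0.55), a galectin that detects damaged vacuoles. The median of these 16 was 0.01, and none of the conjugation genes Atg3, Atg5, Atg7, Atg12 and Atg16l1, taken by role, was called, at −0.07 to 0.09. Of 8 inflammasome genes 2 rose, Casp4 (1.16), a caspase that cuts gasdermin D, and Gsdmd (0.99), the gene of that pore-forming protein, with a median of 0.56.

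The genes most like the members in bulk, out of 15997 others with a mean of at least 1 CPM, were Triobp (Pearson r = 0.997 over the 8 libraries), Il18bp (0.996), Reep4 (0.995), Tap1 (0.994) and Khnyn (0.994). Tap1, which carries peptides for antigen presentation, stood at 114 ± 42.4 CPM with GFP and 229.9 ± 45.0 with RXRa (SD, n = 4), and Il18bp, which binds interleukin 18, at 15.0 ± 4.66 and 29.6 ± 4.202. Of these 5 only Il18bp was called (log2 0.98, edgeR adjusted p = 0.0352). The r values were the highest of many and are given as a description.

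Markers of blood cells moved with the same comparison. Of 7 natural killer cell markers 6 rose, and their summed level was 17.8 to 23.4 CPM in GFP and 39.0 to 97.8 CPM in RXRa libraries. Of 10 T cell markers 6 rose, with sums of 55.5 to 70.4 and 67.4 to 126 CPM, and Cd3e, a defining marker, had means of 0.865 and 3.58 CPM. In GFP libraries most of the T cell sum was Cd4, and with RXRa Cd4 was a smaller part of it. Cd4 had means of 46.0 CPM with GFP and 39.6 with RXRa and was not called (log2 −0.22). Of 6 monocyte and neutrophil markers 4 were tested and 2 rose, with sums of 32.0 to 73.9 and 116 to 224 CPM. The 2 called were Ly6c2 (25.2 to 102.5 CPM in the group means) and Plac8 (17.4 to 51.6). The monocyte marker Ccr2 went from 8.47 to 22.4 CPM without overlap but was not called (log2 1.40, edgeR adjusted p = 0.069). The neutrophil markers did not rise: S100a9 had means of 1.12 CPM with GFP and 0.366 with RXRa (log2 −1.55, edgeR adjusted p = 0.118), S100a8, too low to be tested, had 0.612 and 0.181 CPM, and Ly6g was at 0 in every bulk library. Of 8 microglia and macrophage markers none was called by edgeR, and their sums overlapped, at 671.5 to 1036 CPM with GFP and 749.8 to 1068 CPM with RXRa. B cell markers gave 0 calls of 2 tested, with sums of 1.70 to 2.44 and 1.52 to 5.29 CPM. Of 5 astrocyte markers 1 rose, with sums of 1809 to 2330 and 1904 to 2770 CPM, and of 5 endothelial markers 1 rose, with sums of 170.0 to 232.5 and 226 to 244 CPM. Of 4 striatal projection neuron markers 1 fell, with sums of 2475 to 2830 and 2161 to 2552 CPM, and none of 5 oligodendrocyte markers was called by edgeR, with sums of 4270 to 4806 and 2583 to 4466 CPM.

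Summed over the 10 members, the level was 1115, 910.2, 501 and 616 CPM in GFP libraries 1 to 4 and 1374, 1950, 1357 and 1665 CPM in RXRa libraries 1 to 4. RXRa 2 and RXRa 4 were the highest RXRa libraries in the members' sum and also in the sums of the natural killer, T cell, B cell, monocyte, microglia and astrocyte markers. Among the controls the members' order, GFP 1 over 2 over 4 over 3, was also that of the monocyte, microglia, astrocyte and B cell sums. Other sums kept other orders. The T cell sum was highest in GFP 3 (70.4 CPM) and lowest in GFP 1 (55.5). The natural killer sum was highest in GFP 2 (23.4 CPM) and lowest in GFP 4 (17.8). The endothelial sum had GFP 4 above GFP 2 (220.5 and 203.6 CPM). Within each group the cortical excitatory sum was highest in the library with the lowest members' sum, GFP 3 and RXRa 3. It was 6.997, 92.6, 677 and 77.5 CPM in GFP libraries 1 to 4 and 427, 83.1, 502.5 and 63.8 CPM in RXRa libraries 1 to 4. This order did not hold between groups: RXRa 1 and 3 lay above GFP 1, 2 and 4 in both sums. The pan-neuronal sum was likewise highest in GFP 3 and RXRa 3 (2764 and 2255 CPM) and lowest in GFP 1 and RXRa 4 (1842 and 1720). The part of these cells, and of the tissue taken with each sample, in the members' difference was not tested, and in bulk tissue more cells of a type and more RNA per cell cannot be told apart.

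**Figure D3:**
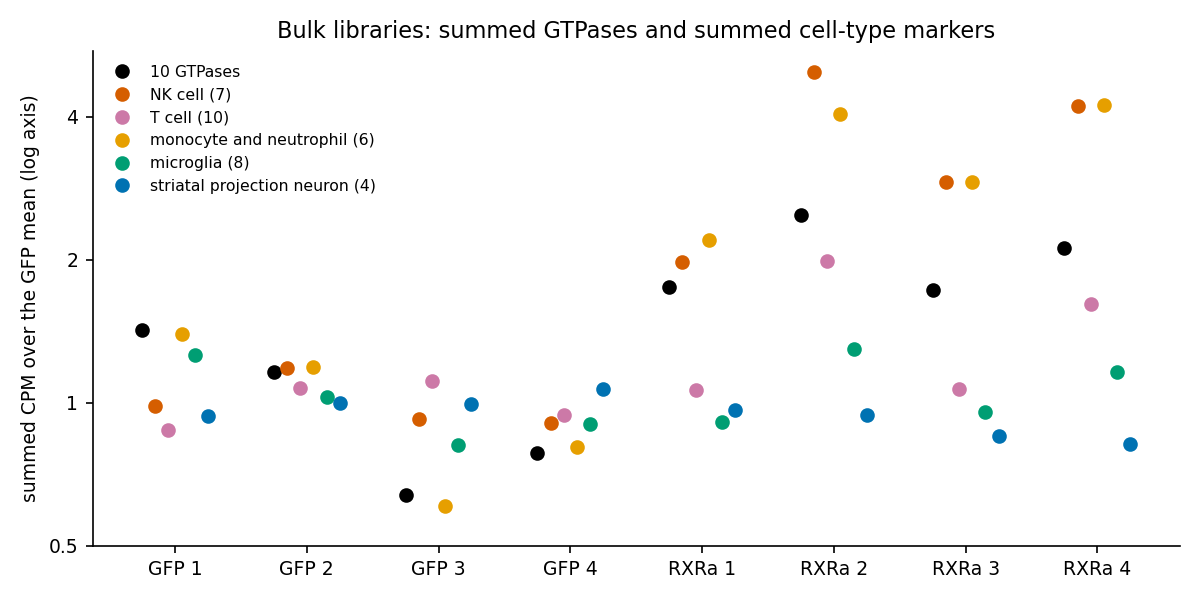
Summed CPM of the 10 GTPases and of 5 marker lists in each bulk library, divided by the mean of the 4 GFP libraries, on a log axis (number of genes in brackets). The GTPase sum lay between 0.638 and 1.42 in GFP and between 1.73 and 2.48 in RXRa libraries, below the natural killer and monocyte sums in every RXRa library.

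In the sorted nuclei none of the 10 members was called higher with RXRa, and their CPM were lower than in bulk, in libraries of another kind. Each member had a median of 1.54 (Tgtp2) to 13.5 (Iigp1) CPM over the 35 libraries. In D1 nuclei no member was called by edgeR or by DESeq2 and 0 of 10 had an unadjusted p under 0.05, where edgeR called 0% of the 43902 genes tested and 8.02% had an unadjusted p under 0.05. The 10 log2 differences, sexes weighted equally, ran from −0.12 (Ifi47) to 0.04 (Gbp7), with SEs of 0.06 to 0.11. In D2 nuclei all 10 lay below 0 and 5 fell at an adjusted p under 0.05.

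The 5 that fell in D2 were Gbp2, Gbp3, Gbp7, Igtp and Iigp1, beside 22.1% of all genes called by edgeR and 7.14% called lower. Iigp1 ran from 11.6 to 16.4 CPM (median 14.4) in the 9 EGFP libraries and from 10.1 to 14.3 (median 11.3) in the 8 RXRa libraries, and fell by 0.29 on the log2 scale (SE 0.08, edgeR adjusted p = 0.0129). Gbp7 ran from 9.05 to 13.5 CPM (median 12.3) and from 7.87 to 13.2 (median 9.32), and fell by 0.29 (SE 0.08, edgeR adjusted p = 0.0178). The groups of both genes overlapped over most of their range. Gbp2 ran from 8.61 to 14.3 CPM (median 11.3) and from 7.58 to 11.0 (median 9.56), and fell by 0.25 (SE 0.08, edgeR adjusted p = 0.0316). Gbp3 ran from 6.51 to 9.41 CPM (median 8.24) and from 5.92 to 8.99 (median 6.94), and fell by 0.24 (SE 0.08, edgeR adjusted p = 0.0339). Igtp, with only 20 to 61 counts per D2 library, ran from 1.93 to 3.01 CPM (median 2.58) and from 1.51 to 2.56 (median 1.93), and fell by 0.34 (SE 0.12, edgeR adjusted p = 0.0388). These 3 genes overlapped between groups as well.

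The other 5 differed by −0.17 (Irgm1), −0.15 (Irgm2), −0.21 (Tgtp2), −0.12 (Ifi47) and −0.09 (Gbp6), none of them called, and the median of the 10 was −0.22 beside −0.04 over all genes. An unadjusted p under 0.05 was found for 6 of the 10 and for 37.1% of all genes. Within a sex, edgeR called none of the 10 in any of the 4 comparisons, each with 0% of all genes called. The members at an unadjusted p under 0.05 were 6 in D2 females and 2 in D2 males, against 25.2% and 19.7% of all genes, and 0 in D1 females and males, against 6.29% and 3.02%, and DESeq2 called 1, 0, 0 and 0. The D2 effect minus the D1 effect was below 0 for all 10, from −0.36 (Igtp) to −0.001 (Ifi47), and neither edgeR nor DESeq2 called any of them, beside 0% of all genes called by edgeR. Here 4 members had an unadjusted p under 0.05, as did 8.22% of all genes, so a difference between D1 and D2 was not shown. Under EGFP alone, D2 against D1 differed by −0.06 to 0.15, with 0 members called by edgeR or DESeq2, 0 with an unadjusted p under 0.05, and 0.121% of all genes called by edgeR.

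**Figure D4:**
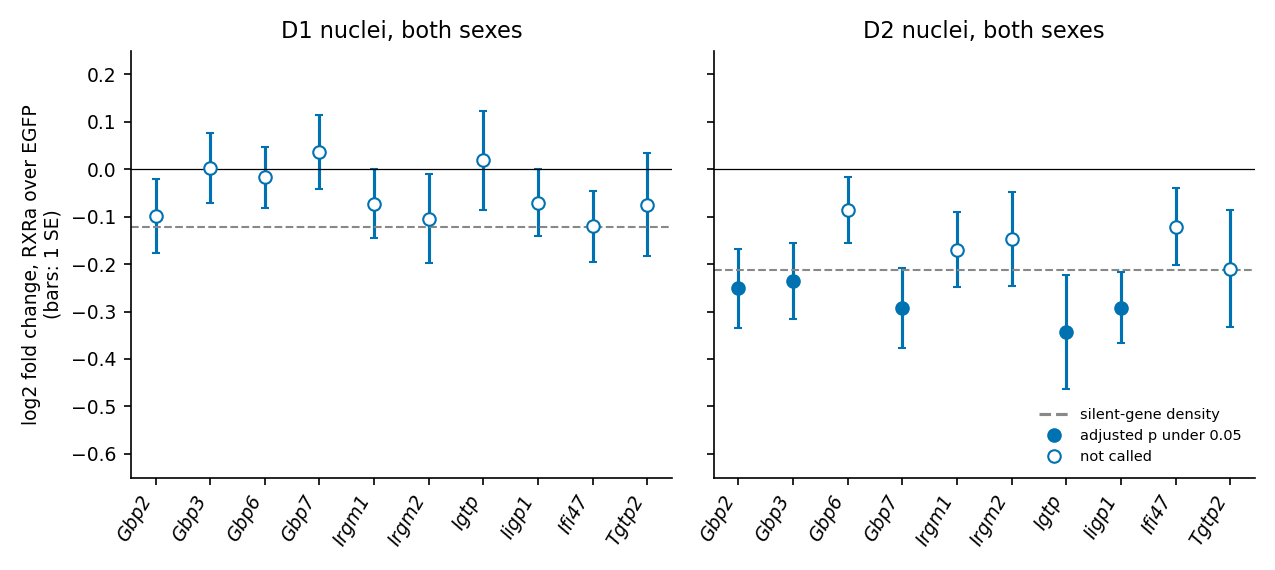
Log2 fold change of RXRa over EGFP with 1 SE for the 10 GTPases in D1 (left) and D2 nuclei (right), sexes weighted equally. Filled points passed an edgeR adjusted p of 0.05; the dashed line marks the change in read density over genes with no bulk count, −0.12 in D1 and −0.21 in D2.

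The levels in nuclei were close to those of genes with no counted RNA in the bulk tissue. A set of 1576 protein-coding genes on autosomes, each 5 kb or longer and without a single bulk count, had a median of 0.5003 CPM per kb of gene body in the sorted table, with 5% below 0.176 and 5% above 0.769. The members lay between 0.219 (Tgtp2) and 0.809 (Iigp1) CPM per kb. Of the 10, 9 were inside that range, 5 above and 5 below its median, and Iigp1 was just above it. In bulk, on the same scale of gene body, Gbp6 had 1.42 CPM per kb and Irgm1 had 21.5, the lowest and highest of the members. On that scale Igtp had 20.5 CPM per kb in bulk, below only Irgm1, and 0.301 in nuclei, with 12.5% of the silent genes below it. The 5 members below the median (Gbp6, Irgm2, Igtp, Ifi47 and Tgtp2) are those whose bodies overlap another annotated protein-coding gene. How reads in such overlaps were counted is not given, so their values may lie below the true levels. The part of these overlaps was not tested.

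**Figure D5:**
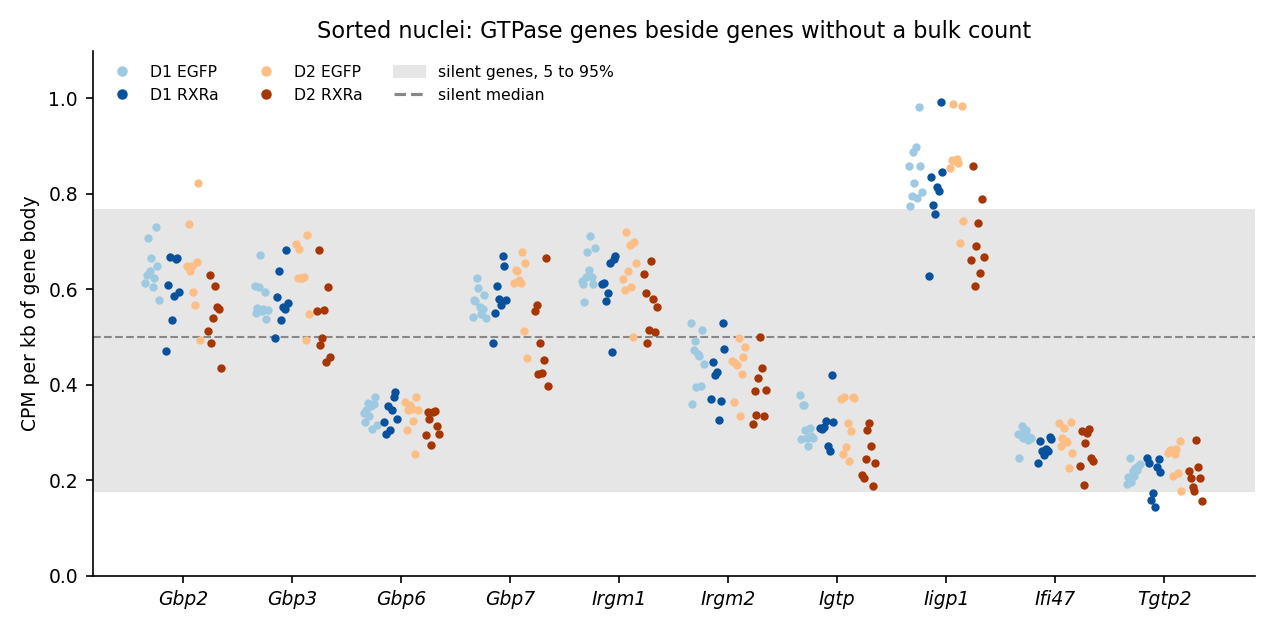
CPM per kb of gene body for each GTPase in each of the 35 sorted libraries, coloured by population and vector. The grey band spans 5 to 95% of the 1576 genes with no bulk count and the dashed line their median, 0.5003; 9 of the 10 members have their mean inside the band.

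The density over the silent genes itself differed between vectors, at −0.21 (log2, RXRa over EGFP) in D2 nuclei, −0.21 in each sex, and −0.12 in D1 nuclei, beside member medians of −0.22 and −0.07. With that density as a covariate in the fit, edgeR called 0 of the 10 members in D2 and 0 of all genes (1345 genes had an unadjusted p under 0.05), and the members ran from −0.28 to 0.04. The count of member calls in D2 was also 0 when the D2 libraries were fitted alone, where 2543 of all genes were called. Without female RXRa replicate 4 it was 0, and so was the count over all genes, beside 9683 in the main fit. All 10 members stayed below 0 in both fits, at medians of −0.20 and −0.22. The member count was 1 without male RXRa replicate 5 and 2 without male EGFP replicate 4, beside 1626 and 8677 of all genes. It was 3 without female EGFP replicate 1 or 4, female RXRa replicate 2 or male EGFP replicate 1. Over all genes these fits called 6420, 7843, 8076 and 6484. Scaled by library totals alone, all genes shifted to a median of −0.20 and 7 members were called, at a median of −0.38, and the split of all calls went from 6548 higher and 3135 lower to 2063 higher and 9325 lower.

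Many markers of other cell types also lay in the range of the silent genes. Inside its 5 to 95% were 6 of 8 microglia and macrophage markers (Cd68, at 1.27 CPM per kb of body, was the highest), 8 of 10 T cell markers (Cd3g the highest, at 1.16) and 5 of 7 natural killer markers (Ncr1 the highest, at 0.802). Of the 7 natural killer markers none was called in D1 and 1 fell in D2, and of the 10 T cell markers none and 1. Neuron markers moved the other way in D2: 3 of 3 pan-neuronal and 3 of 4 striatal projection neuron markers rose, with medians of 0.74 and 0.58, and their part in the members' fall was not tested. Of the other GTPase genes, 26 were tested in nuclei: edgeR called none in D1, and in D2 6 fell and 2 rose, with medians of −0.06 and −0.09.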

How the data were processed

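Per the labels' protocols, bulk libraries were poly(A)-selected and sorted libraries were made from ribosomal-depleted total RNA with a stranded low-input kit, and both were read as pairs of 150 bp. The submitters' processing notes name FastQC, Trimmomatic, HISAT2, Picard, featureCounts and Subread and the build GRCm38; versions, the strand setting and the handling of reads that fit several genes are not given in the sources used here. The authors deposited raw counts, 1 whole number per gene and library, without normalization. Of the 55487 gene identifiers, 55394 are in GENCODE M21, which gave symbols, positions and lengths.

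Counts were scaled by TMM and tested with edgeR 4.0.16 (R 4.3.3; filterByExpr, quasi-likelihood F test, Benjamini-Hochberg over all genes tested, calls at an adjusted p under 0.05). The bulk fit held 8 libraries and the sorted fit 35 libraries in 8 groups. Tests were checked on simulated data. Members and gene lists were chosen with earlier results of these data known, and list genes were named by size among those called or by role. Silent genes are autosomal, protein-coding, at least 5 kb long and without a bulk count. Alternatives were other scaling and filters, DESeq2 1.42.0, a replicate block, silent-gene density as a covariate, D1 and D2 fitted apart and each library left out. The labels do not say that replicates are separate animals, so p-values measure the spread between libraries, which may be technical.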

Additional observations from a re-analysis of the deposited data

Results flagged for a closer look

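In 6 of 100 combinations of a member with a group of sorted or bulk libraries, 1 library's CPM stood apart from the others of its group. Chance gives about 1 in 20, but these combinations share libraries and so are not independent. Gbp2 was high in D2 female EGFP replicate 3 (12.84 CPM, others 11.12 to 11.31), and Irgm2 was low in the same library (8.44, others 10.24 to 10.43). Iigp1 was high in D2 female EGFP replicate 4 (16.4, others 14.19 to 14.47), and Tgtp2 was low in D2 female EGFP replicate 5 (1.463, others 1.804 to 1.844). Gbp3 was high in D1 male RXRa replicate 3 (9.007, others 7.367 to 7.542), and Irgm1 was low in D1 male RXRa replicate 2 (4.562, others 6.361 to 6.514).

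The D2 library without a group entered no comparison. It held 2941 counts of the vector's RXRa sequence, beside 0 to 17 in sorted EGFP and 1216 to 13017 in sorted RXRa libraries. Scaled by its library total, Gbp2 stood there at 10.1 CPM, Iigp1 at 12.6 and Igtp at 3.01, within the ranges of the 35 grouped libraries (6.33 to 14.5, 7.92 to 17.3 and 1.28 to 3.54).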

How the results depend on the processing

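The 10 members kept their direction in bulk in all 15 alternative fits, and in D2 in 24 of 25, Ifi47 turning from −0.12 to 0.0437 with the silent-gene density covariate. Bulk calls among members (5) became 8 with DESeq2, 8 without a low-count filter and 0 with a replicate block, and all-gene calls (687) became 1619 with DESeq2 and 0 with the block (3303 at an unadjusted p under 0.05). D2 calls among members (5) became 0 with the block, 0 with the covariate and 0 in the D2-only fit, and all-gene calls (9683) became 1 with the block, 0 with the covariate and 2543 in the D2-only fit. For single sexes, DESeq2 called 1 member and 3672 genes in D2 females, 23 genes in D2 males and 4 genes in D1 females, and the block called 1 gene in D1 females and 1 in D2 females. For D2 against D1 under EGFP, 53 genes became 90 with DESeq2 and 203 with the covariate. The other alternatives left each of these counts within 1.5 times.

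With one library left out, bulk calls ran from 0 to 8 among members and from 9 to 1016 among all genes. In D2 they ran from 0 to 6 and from 0 to 14763, in D2 females from 0 to 4 and from 0 to 6701, in D2 males from 0 to 5985 among all genes and in D1 females from 0 to 4. Same-numbered libraries mostly did not deviate together (in bulk r = −0.457, 0.120, 0.412 and −0.0186). In sorted libraries r ran from −0.275 (D1 male number 3) to 0.462 (D2 male number 1). For some, bulk number 3 and D2 male number 1 among them, the same number was the best match. The numbers were not read as pairs, and the fewer calls with the block were not read as a weaker effect. A block fit for D2 against D1 under EGFP could not be fitted because its terms are aliased. Depth limits Igtp and Tgtp2 most, with 20 to 95 and 15 to 48 counts per sorted library.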
